A study of Homo sapiens with 96 samples.

Results

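The 5 genes described here, ANKZF1, NEMF, LTN1, TCF25, and VCP, encode factors of ribosome quality control. Their members are all alternative splicing events whose gene symbol is one of these 5 in the 8 deposited rMATS tables, 191 of 239131 events in all. Of these, 41 lie in ANKZF1, 48 in NEMF, 18 in LTN1, 71 in TCF25, and 13 in VCP. Poly(A)-RNA seq libraries, 3 for each of 10 groups, came from A549, a human lung cancer line. The cells were given 1 µM GSK591, a PRMT5 inhibitor, or 1 µM MS023, a pan-Type I PRMT inhibitor, for 2, 4, or 7 days, or both at 1 µM each for 2 or 4 days (co-treatment). Control cells received 0.01% DMSO for 4 or 7 days. The inhibitor groups of 2 and 4 days were compared with DMSO at 4 days, and those of 7 days with DMSO at 7 days, so 6 comparisons share 1 set of control libraries and 2 share the other. All groups share this 1 cell line, the tables hold no expression levels, and nothing in the labels says that the 3 libraries of a group came from separate cultures, so p-values measure only the spread between these libraries. The libraries of a table carry no replicate numbers and are called a, b, and c here, by their place in it.

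When a ribosome stalls and its subunits split, the unfinished chain stays on the large subunit, joined to its tRNA. NEMF binds this complex and can extend the chain with C-terminal tails, while the E3 ligase LTN1 (listerin) adds ubiquitin to it, and TCF25 is the human relative of a yeast protein of the same complex that shapes the ubiquitin chains. The ATPase VCP pulls the marked chain away, and ANKZF1 cuts the chain free from its tRNA so that both can leave. Intron retention keeps an intron in the poly(A) RNA, where it usually brings a stop codon into the reading frame.

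Inclusion (Ψ) is the share of RNA that holds the alternative segment, from reads that include it and reads that skip it, each divided by the length in which they can fall, and ΔΨ is Ψ with inhibitor minus Ψ with DMSO. An event was called where a quasi-binomial test with limma-moderated dispersion gave an adjusted p under 0.05. On simulated data this test gave more false calls among skipped exons than the nominal share, and 126 of the 191 members are skipped-exon events. Because Ψ is an average over a culture, more cells with the longer RNA and more of it per cell cannot be told apart. Each library had between 37260 and 70502 reads on the members' events, in which a read can count for several events. Libraries of the same group differed by 1.88 to 4.72 times the sampling variance over retained introns, so none was a copy of another.

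ANKZF1 lies on chromosome 2 (chr2:220094528-220101401 of hg19, plus strand) and has 14 exons. The study's RT-qPCR assays fix which intron is called intron 9: the forward primer gtcagactgcactcacctca starts at 220098875 in exon 9 and its partner gtagggaatttgccagtgcat ends at 220099079 in the intron. At the other end, ggactcagctcttgatgtgcta lies in the intron from 220099410 to 220099431 and aagccatcttctccctccga in exon 10. These primers place intron 9 at chr2:220099011-220099547, 537 bases long, inside the coding region. Only 1 of the gene's 13 introns is longer, and the median length is 219 bases. GC content in intron 9 is 41.9%, within the range of 40.6% to 58.2% over all 13 introns, of which 12 have GT-AG ends. The 5′ splice sites of intron 9 and of its neighbours, and of the other introns that the tables list as retained, are printed here with the exon in lower case and the first 10 intron bases in capitals, so that the ends that a retained intron keeps can be compared.
intron 6: tatttcaaggGTGAGAGGGT
intron 8: catgtctatgGTGAGCCTTT
intron 9: cccaaacaggGTTTGATTAC
intron 10: ccactgtgcaGTGAGTAAAG
intron 11: caaggctcagGTCATCTGGA
intron 13: tcaatactcgGTATGGGGTG
The 3′ splice sites are printed with the last 20 intron bases in capitals and the exon in lower case.
intron 6: TGAGTCTGTGCTGTCTACAGaagagaagtg
intron 9: CATGTCAGGTTTTTCCCTAGgttcagggtc
intron 13: TTTTTCTTCCTCTTGTTCAGacgctgctgg

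**Figure D1:**
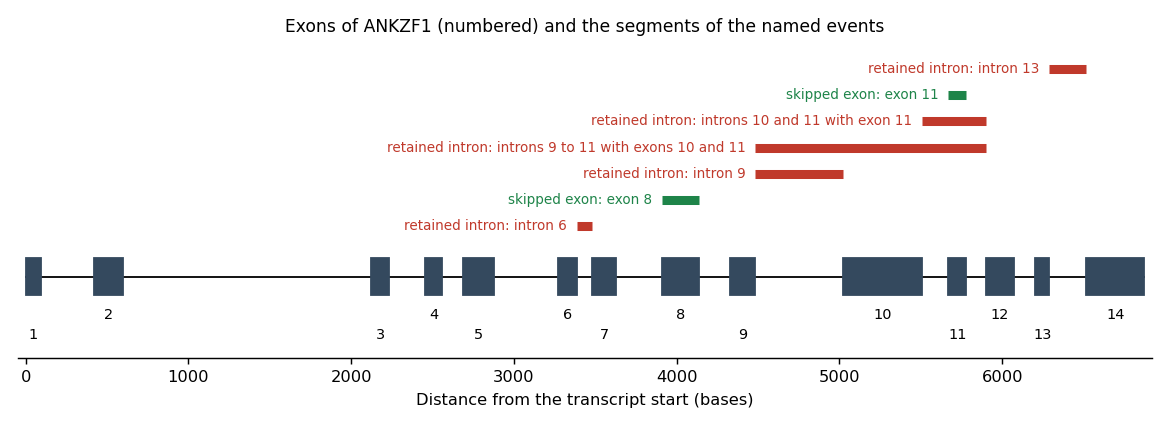
Map of ANKZF1 drawn to scale, with distance from the transcript start in bases on the horizontal axis, exons as numbered boxes, retained-intron events as red bars and skipped exons as green bars. Of the 5 retained-intron events, those of introns 6, 9, and 13 span 1 intron each, and the other two also contain exons.

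Retention of ANKZF1 intron 9 rose with GSK591 alone and with co-treatment at every time measured. It moved little with MS023, which passed the test on no day. Mean Ψ was 0.36 with DMSO at 4 days and 0.741 to 0.822 with GSK591 alone. With DMSO for 4 days, Ψ was 0.379, 0.422, and 0.279 in libraries a, b, and c, and with DMSO for 7 days it was 0.335, 0.343, and 0.399. With GSK591 it was 0.66, 0.724, and 0.84 at 2 days, 0.828, 0.839, and 0.799 at 4 days, and 0.806, 0.759, and 0.775 at 7 days. All 9 of these libraries lay above all 6 DMSO libraries. With co-treatment, Ψ was 0.675, 0.647, and 0.713 at 2 days and 0.795, 0.686, and 0.795 at 4 days, again with no overlap. With MS023 it was 0.313, 0.416, and 0.381 at 2 days, 0.312, 0.312, and 0.302 at 4 days, and 0.272, 0.358, and 0.353 at 7 days, which overlapped the DMSO range on each day.

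In terms of ΔΨ, GSK591 gave +0.381 at 2 days (mean 0.741 ± 0.0916 against 0.36 ± 0.073, SD, n = 3 libraries each; adjusted p = 0.000205, limma-moderated test). The rise at 4 days was +0.462 (0.822 ± 0.0205, n = 3; adjusted p = 1.16e-07 by the limma-moderated test), and that at 7 days was +0.421 (0.78 ± 0.0237 against 0.359 ± 0.0346, n = 3; adjusted p = 8.36e-09 by the limma-moderated test). Co-treatment gave +0.319 at 2 days and +0.399 at 4 days (adjusted p = 1.89e-05 and 8.74e-07). MS023 gave +0.00987 at 2 days, -0.0514 at 4 days, and -0.0314 at 7 days (adjusted p = 0.96, 0.478, and 0.647). Between 142 and 960 reads per library stood behind these values. Each of the 5 called rises stayed called under every alternative tried, with a highest adjusted p of 0.0242, and left out 1 library at a time the GSK591 rise at 2 days ranged from 0.332 to 0.422.

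**Figure D2:**
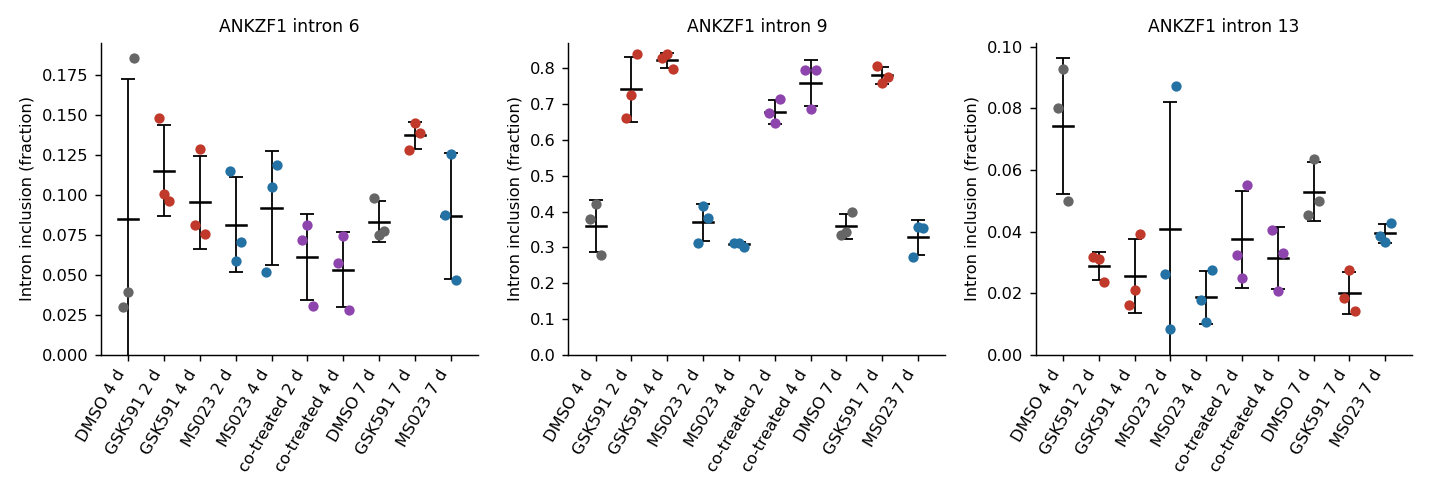
Inclusion (Ψ, as a fraction) of introns 6, 9, and 13 of ANKZF1 in each library, by group, with the mean as a line and the SD as a bar (n = 3), and separate vertical scales. Intron 9 lies at 0.279 to 0.422 with DMSO and at 0.647 to 0.84 wherever GSK591 was present, alone or with MS023.

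Among all retained introns tested, intron 9 of ANKZF1 had the 36th highest ΔΨ of 3866 with GSK591 at 2 days, the 41st of 3933 at 4 days, and the 23rd of 3836 at 7 days. With co-treatment it ranked 99th of 3897 at 2 days and 67th of 3949 at 4 days. The median ΔΨ over all retained introns was 0.015 with GSK591 at 2 days, 0.0196 at 4 days, and 0.00762 at 7 days. Over all genes, 24% of retained introns rose with GSK591 at 2 days, 33.9% at 4 days, and 21.8% at 7 days, and 29.7% and 33.6% rose with co-treatment at 2 and 4 days. A rise was thus common among introns with GSK591, while few rose as far as intron 9. The paper chose its RT-qPCR introns, this one included, because rMATS found them to change in opposite directions with PRMT5 and Type I inhibition. The rank of intron 9 is therefore not independent of that choice. In the test used here its change with MS023 was called on no day.

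The direct comparison of both compounds addresses whether a PRMT5 inhibitor and a Type I inhibitor, at the same dose and day, differ in this intron. GSK591 libraries exceeded MS023 libraries by 0.371 at 2 days, 0.514 at 4 days, and 0.452 at 7 days (adjusted p = 2.64e-05, 2.33e-13, and 5.41e-15). Co-treatment minus GSK591 was -0.0628 at 2 days and -0.0636 at 4 days, neither of which passed the test (adjusted p = 0.64 and 0.26). GSK591 at 4 days exceeded GSK591 at 2 days by 0.0808 (adjusted p = 0.299), and the GSK591 effects at 7 and 4 days differed by -0.0414 (adjusted p = 0.693). Intron 9 moved by -0.000837 between the DMSO groups of 7 and 4 days (adjusted p = 0.947).

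The 537 bases of intron 9 are a multiple of 3, so the intron leaves the frame as it is but holds a stop codon in it, as read from the annotated coding frame on GRCh37. Translation that enters the intron meets a stop after 426 codons, against 726 codons in the annotated protein. The stretch from the last 20 bases of exon 9 into the intron (chr2:220098991-220099087, plus strand), shown because it ends at that stop in capitals, reads
exon 9 into intron 9: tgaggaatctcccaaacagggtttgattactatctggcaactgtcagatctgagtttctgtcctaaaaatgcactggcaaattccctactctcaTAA
No protein was measured in these tables, so this is a property of the sequence and not of the cells.

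Intron 13 of ANKZF1 (chr2:220100818-220101043, 226 bases), the last intron of the gene, went the other way. Its retention was low in all groups and fell with GSK591 on all 3 days and, at 4 days, with co-treatment and MS023. Ψ was 0.0802, 0.0929, and 0.0498 with DMSO at 4 days and 0.0454, 0.0636, and 0.0498 with DMSO at 7 days. GSK591 libraries held 0.0317, 0.031, and 0.0237 at 2 days, 0.0163, 0.0211, and 0.0391 at 4 days, and 0.0185, 0.0276, and 0.0141 at 7 days. Each GSK591 library was below each DMSO library of its comparison. ΔΨ was -0.0455, -0.0488, and -0.0329 for GSK591 at 2, 4, and 7 days (adjusted p = 0.0451, 0.0115, and 0.0161), and at 4 days it was -0.0429 with co-treatment and -0.0556 with MS023 (adjusted p = 0.0185 and 0.016). Over all genes 2.38% of retained introns fell with GSK591 at 2 days, 4.32% at 4 days, and 6.1% at 7 days, and at 4 days 6.1% fell with co-treatment and 5.6% with MS023. These calls rest on 4 to 29 intron reads per library, and 1 library decides several of them. That at 2 days was lost without any of GSK591 libraries a, b, and c or DMSO libraries a and b (ΔΨ between -0.0577 and -0.0362), and that at 4 days without DMSO library b (ΔΨ between -0.0611 and -0.0395). The 7-day call was lost without GSK591 library c or DMSO library b (ΔΨ between -0.0366 and -0.0275). At 4 days the co-treatment call was lost without its library b or DMSO library a or b (ΔΨ between -0.0551 and -0.0336), and the MS023 call without its library a or b or the same DMSO libraries (ΔΨ between -0.0679 and -0.0463). Limma on log2 odds ended only the MS023 call (adjusted p = 0.163, with a range of 0.00777 to 0.163 over the alternatives). The 2-day GSK591 call was lost with adjustment over all event types and with a dispersion prior from events with at least 10 reads of each form (adjusted p = 0.112 and 0.0611, with a range of 0.036 to 0.183 over the alternatives).

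Intron 6 (chr2:220097914-220098007, 94 bases) passed the test in none of the 8 comparisons with DMSO. Its mean Ψ lay between 0.0532 and 0.137 over the 10 groups, and DMSO library c of 4 days, at 0.186, stood above libraries a and b at 0.0301 and 0.0396. The other two listed introns are intervals that contain exons, so their Ψ is not that of an intron alone. One spans introns 10 and 11 with exon 11 between them (chr2:220100035-220100429), had mean Ψ between 0.895 and 0.964, and was called in none of the 8 comparisons. The other spans introns 9 to 11 (chr2:220099011-220100429), was listed in 4 of the 8 tables, and had at most 2 skipping reads in a library.

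The interval of introns 10 and 11 nevertheless held a difference that its Ψ does not carry, because the only reads set against it are those of the rare junction from exon 10 to exon 12. Set against the reads that support exon 11 itself, its inclusion reads were 1.36, 1.34, and 1.1 times as many with DMSO at 4 days and 1.23, 1.16, and 1.13 times with DMSO at 7 days. With GSK591 the ratio was 5.23, 4.26, and 4.48 at 2 days, 10.8, 6.94, and 7.64 at 4 days, and 5.02, 6.45, and 5.79 at 7 days. The co-treated libraries gave 5.76, 2.9, and 7.46 at 2 days and 7.02, 5.79, and 5.14 at 4 days. Every library with GSK591 lay above every library without it. With MS023 the ratio was 0.602 to 1.4 at 2 days, 0.752 to 1.06 at 4 days, and 0.862 to 0.902 at 7 days. This ratio was chosen after its values were seen and has no test, and an exact permutation test of 3 libraries against 3 could not go below 0.1. Both counts are raw and not divided by the length in which reads can fall, and whether a read counts on both sides cannot be told from them. The ratio is therefore a description of where reads fell and not a share of RNA.

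Inclusion of 2 ANKZF1 exons changed as well, and the length of each is no multiple of 3. Exon 8 (chr2:220098437-220098665, 229 bases) was included at 1, 1, and 0.917 with DMSO at 4 days and at 0.935, 0.979, and 0.986 with DMSO at 7 days. GSK591 gave 0.901, 0.916, and 0.851 at 2 days, 0.869, 0.895, and 0.852 at 4 days, and 0.862, 0.836, and 0.918 at 7 days. All GSK591 libraries lay below the DMSO libraries of their comparison. Inclusion fell with GSK591 at 4 and 7 days (ΔΨ = -0.1 and -0.0946, adjusted p = 0.00615 and 0.00224) and with co-treatment at 2 and 4 days (ΔΨ = -0.117 and -0.0936, adjusted p = 0.00305 and 0.0104), while GSK591 at 2 days did not pass the test (ΔΨ = -0.0829, adjusted p = 0.0988). With MS023 at 7 days all 3 libraries were at 1 and inclusion rose by 0.0335 (adjusted p = 0.046), a call lost without any 1 of its 6 libraries (ΔΨ between 0.0179 and 0.0431). GSK591 libraries were lower than MS023 libraries on all 3 days, by -0.0862, -0.11, and -0.128 (adjusted p = 0.0462, 0.000256, and 1.11e-07).

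Exon 11 (chr2:220100196-220100307, 112 bases) was included at 0.952, 0.933, and 0.984 with DMSO at 4 days and at 0.967, 0.963, and 0.984 with DMSO at 7 days. GSK591 gave 0.866, 0.722, and 0.963 at 2 days, 0.8, 0.714, and 0.839 at 4 days, and 0.809, 0.752, and 0.891 at 7 days. The GSK591 libraries of 4 and 7 days lay below those of DMSO, and those of 2 days overlapped them. Inclusion fell with GSK591 at 4 and 7 days and with co-treatment at 2 days (ΔΨ = -0.172, -0.154, and -0.17, adjusted p = 0.00325, 0.000965, and 0.00503). GSK591 at 2 days and co-treatment at 4 days did not pass the test (ΔΨ = -0.106 and -0.073, adjusted p = 0.0965 and 0.118). Against MS023, GSK591 was lower by -0.126, -0.196, and -0.167 at 2, 4, and 7 days (adjusted p = 0.0258, 6.79e-05, and 0.000162). The skipping reads of exon 11, at most 16 per library, are the same reads that are set against the interval of introns 10 and 11. Against that interval they gave a mean Ψ of 0.932 both with DMSO and with GSK591 at 4 days. The inclusion reads of exon 11 fell from 104, 98, and 105 to 35, 70, and 73 between these groups. A lower Ψ of exon 11 thus does not by itself show more skipping. The event that rMATS lists takes exons 9 and 10 with intron 9 between them as its upstream exon, so it does not tell RNA with intron 9 from RNA without it.

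Joined as exon 7 to exon 9, the frame meets a stop after 292 codons, and joined as exon 10 to exon 12 after 568 codons, of 726. Both junctions are shown from the last 20 bases of the upstream exon to that stop, in capitals.
exon 7 to exon 9: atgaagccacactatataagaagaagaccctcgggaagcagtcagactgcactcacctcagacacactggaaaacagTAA
exon 10 to exon 12: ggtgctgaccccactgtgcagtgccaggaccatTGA
Exon calls against DMSO hung on single libraries more often than those of intron 9. For exon 8 they were lost at 4 days without GSK591 library a or c or DMSO library a or b (ΔΨ between -0.128 and -0.0865), and at 7 days without GSK591 library a or b or DMSO library b or c (ΔΨ between -0.118 and -0.0767). Its co-treatment calls were lost in 4 of 6 fits at 2 days and 5 of 6 at 4 days (ΔΨ between -0.145 and -0.072). For exon 11 they were lost at 4 days without GSK591 library b and at 7 days without GSK591 library b or DMSO library a or c, with ΔΨ between -0.199 and -0.137 and between -0.191 and -0.122 over these fits. At 2 days of co-treatment the call of exon 11 was lost without library b or c of that group or DMSO library c (ΔΨ between -0.208 and -0.127). With limma on log2 odds, no call of either exon against DMSO held (adjusted p from 0.0822 to 0.228, where all alternatives ranged from 0.000343 to 0.337). Between GSK591 and MS023, the calls of 4 and 7 days held for both exons without any single library and with limma on log2 odds (adjusted p from 0.0216 to 0.0488). Those of 2 days did not hold. For exon 8 that call was lost without any 1 of the 6 libraries (difference from -0.0995 to -0.067, adjusted p over the alternatives from 0.0451 to 0.162), and for exon 11 without GSK591 library a or b or MS023 library b or c (difference from -0.183 to -0.0621, adjusted p from 0.0211 to 0.314).

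**Figure D3:**
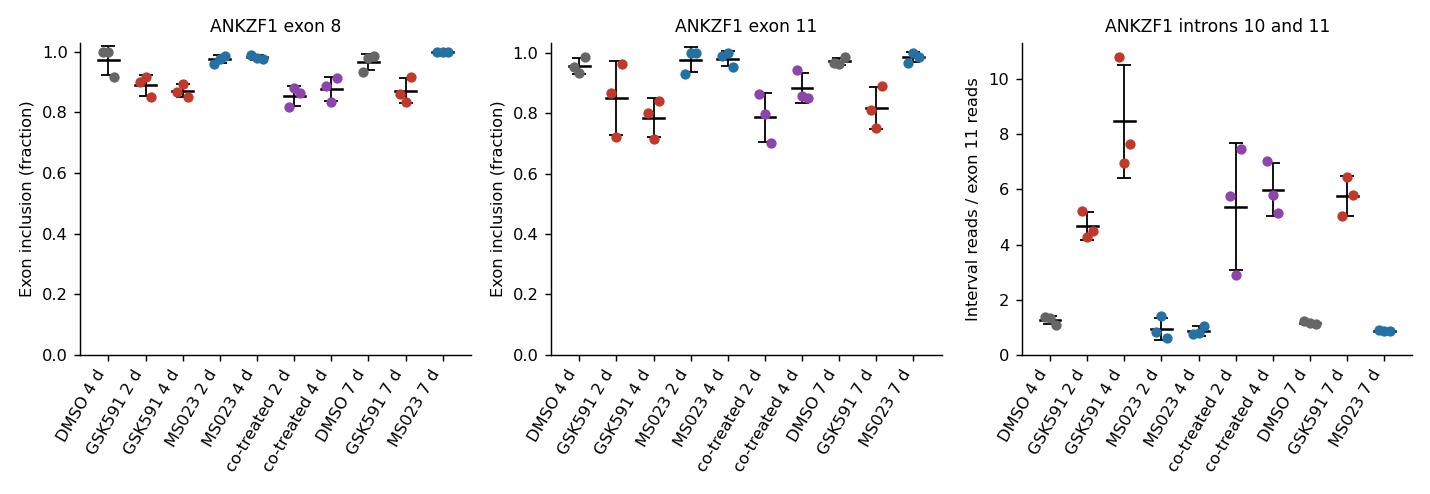
Inclusion (Ψ, as a fraction) of ANKZF1 exons 8 and 11 in each library, and the ratio of reads in the interval of introns 10 and 11 to reads on exon 11, by group, with mean and SD (n = 3). The ratio is 2.9 or more in every library with GSK591 and at most 1.4 in every other library.

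TCF25 (chr16:89940000-89977787, plus strand, 18 exons) had 24 of 66 tested events called against DMSO at least once, the most of the 5 genes, and also the most events. With GSK591, 9.3%, 13.2%, and 28% of its tested events were called at 2, 4, and 7 days, against 7.02%, 11.2%, and 8.93% of all events. With MS023 the shares were 18.2%, 16.3%, and 12.5%, against 3.16%, 3.75%, and 4.75%. With co-treatment they were 31.8% and 28.6% at 2 and 4 days, against 13.4% and 14.7%. Many of these events overlap. A junction from exon 12 to exon 15, which leaves out exons 13 and 14 together, had at most 10 reads in a library with DMSO or GSK591 and 23 or more with MS023 or co-treatment at 2 and 4 days. These reads numbered 0, 4, and 1 with DMSO at 4 days and 1, 0, and 2 with DMSO at 7 days. With GSK591 they numbered 1, 8, and 10 at 2 days, 2, 4, and 10 at 4 days, and 1, 3, and 0 at 7 days. MS023 gave 35, 40, and 23 at 2 days, 42, 29, and 25 at 4 days, and 8, 5, and 8 at 7 days. Co-treatment gave 65, 71, and 71 at 2 days and 45, 54, and 25 at 4 days. The counts with MS023 or co-treatment at 2 and 4 days were all above those of every DMSO and GSK591 library, while the counts with MS023 at 7 days lay within the range of the GSK591 libraries.

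Exon 13 (chr16:89970526-89970613, 88 bases), with exons 12 and 15 as flanks, was included at 1, 0.979, and 0.994 with DMSO at 4 days. Its inclusion was 0.814, 0.78, and 0.847 with MS023 at 2 days and 0.774, 0.856, and 0.845 at 4 days, below all DMSO libraries. With co-treatment it was 0.604, 0.546, and 0.484 at 2 days and 0.774, 0.718, and 0.849 at 4 days. ΔΨ was -0.177 and -0.166 with MS023 at 2 and 4 days and -0.446 and -0.211 with co-treatment (adjusted p = 1.12e-13, 1.69e-10, 3.95e-17, and 1.3e-09). GSK591 gave -0.0415, -0.0258, and -0.00438 at 2, 4, and 7 days, none of which passed the test (adjusted p = 0.13, 0.126, and 0.802). At 7 days MS023 gave 0.936, 0.958, and 0.931 against 0.989, 1, and 0.98 with DMSO, and ΔΨ was -0.0477 (adjusted p = 0.0659).

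Exon 14 (chr16:89971346-89971504, 159 bases), set against the same junction, fell as well, with a ΔΨ of -0.143 and -0.14 for MS023 at 2 and 4 days and of -0.453 and -0.183 for co-treatment (adjusted p = 3.76e-14, 3e-11, 9.81e-19, and 3.83e-10). Exons 13 and 14 with the intron between them, which rMATS lists as 1 exon, fell by 0.465 with co-treatment at 2 days, the largest difference from DMSO of any tested event of the 5 genes. Its ΔΨ was -0.191, -0.192, and -0.0534 with MS023 at 2, 4, and 7 days and -0.234 with co-treatment at 4 days (adjusted p = 1.73e-13, 4.14e-11, 0.0303, and 6.71e-10). These 3 events share their skipping reads and are 1 observation. Tested against each other, GSK591 exceeded MS023 in exon 13 inclusion by 0.136 at 2 days and 0.14 at 4 days (adjusted p = 2.36e-05 and 9.14e-06), and by 0.0433 at 7 days, which did not pass (adjusted p = 0.103). Co-treatment was below GSK591 by -0.405 at 2 days and -0.185 at 4 days (adjusted p = 1.25e-26 and 6.14e-09). The MS023 effects at 7 and 4 days differed by 0.118, which did not pass the test (adjusted p = 0.619).

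All MS023 and co-treatment calls of exons 13 and 14 at 2 and 4 days held without any single library. With limma on log2 odds, which weights all libraries alike whatever their reads, the co-treatment calls against DMSO held (adjusted p = 0.00989 for exon 13 at 2 days and 0.0139 at 4 days, the highest over the alternatives), while those of MS023 did not (0.194 and 0.171, against lowest values over the alternatives of 1.2e-13 and 8.07e-11). The direct differences in exon 13 also held without any single library and were lost with limma on log2 odds. There, GSK591 against MS023 had an adjusted p of 0.221 and 0.0661 at 2 and 4 days, and co-treatment against GSK591 one of 0.239 and 0.186. Each was the highest over its alternatives, of which the lowest were 2.51e-05, 8.17e-06, 8.7e-27, and 5.84e-09. The 7-day call of the joint segment was lost without any 1 of its 6 libraries (ΔΨ between -0.0612 and -0.048).

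Exons 13 and 14 are shown with 10 intron bases on either side in lower case and the exon in capitals, since they are the part that the exon 12 to exon 15 junction leaves out.
exon 13: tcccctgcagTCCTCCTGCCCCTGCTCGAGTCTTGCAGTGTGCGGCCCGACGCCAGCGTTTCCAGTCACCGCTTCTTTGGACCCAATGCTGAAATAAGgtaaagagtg
exon 14: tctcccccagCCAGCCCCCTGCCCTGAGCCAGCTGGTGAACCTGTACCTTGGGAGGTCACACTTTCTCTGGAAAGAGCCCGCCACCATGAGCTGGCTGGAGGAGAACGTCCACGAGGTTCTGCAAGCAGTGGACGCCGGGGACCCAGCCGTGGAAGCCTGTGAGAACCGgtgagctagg
Without both exons the frame shifts and meets a stop after 476 codons, of 676 in the annotated protein. From the last 20 bases of exon 12 the joined sequence runs to that stop, in capitals.
exon 12 to exon 15: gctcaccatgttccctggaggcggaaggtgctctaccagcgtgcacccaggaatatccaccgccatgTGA

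**Figure D4:**
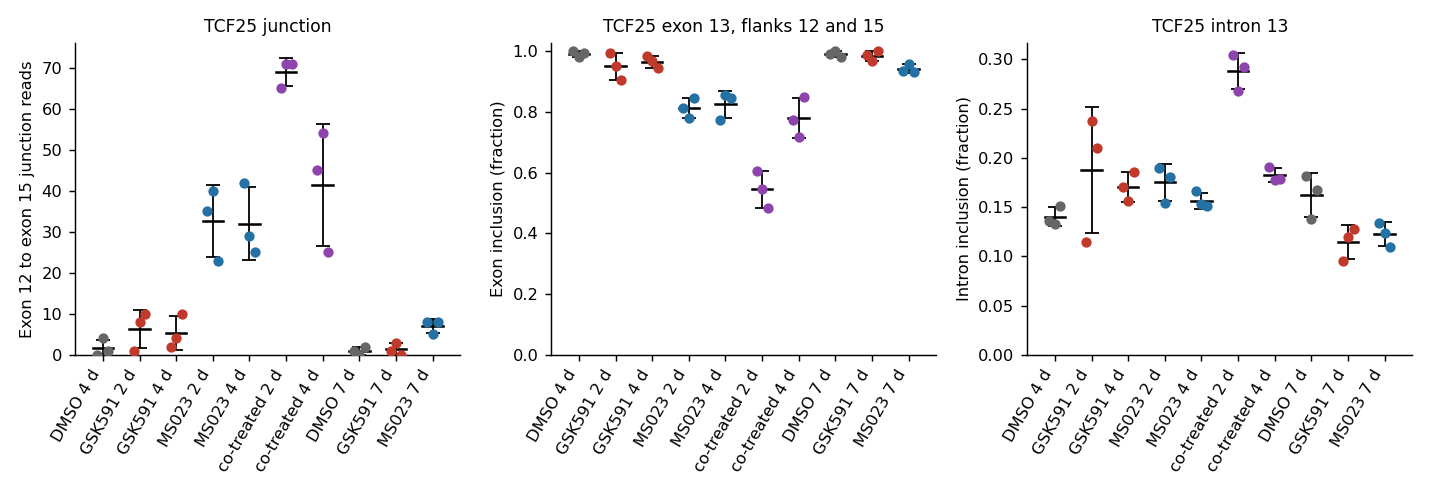
Reads on the TCF25 junction from exon 12 to exon 15 (count, not scaled to depth), inclusion (Ψ) of exon 13, and inclusion of intron 13 in each library, by group, with mean and SD (n = 3). Junction reads reach 65 to 71 with both inhibitors at 2 days and stay at 10 or fewer in every DMSO and GSK591 library.

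The intron between these exons, intron 13 of TCF25 (chr16:89970614-89971345, 732 bases), was chosen for description after its values were seen. Its Ψ was 0.136, 0.133, and 0.151 with DMSO at 4 days and 0.304, 0.268, and 0.292 with co-treatment at 2 days, with no overlap. Ψ rose by 0.148 (adjusted p = 1.23e-07, limma-moderated test), and at 4 days of co-treatment by 0.0429 (0.191, 0.178, and 0.179; adjusted p = 0.003). At 2 days of co-treatment the inclusion reads were no more than with DMSO at 4 days (402, 332, and 234 against 408, 408, and 397). Reads that skip the intron were fewer (156, 153, and 96 against 440, 449, and 378). RNA that leaves out both exons counts on neither side. The 2-day rise is thus one of the ratio, and its link to the loss of both exons was not tested. GSK591 at 2 days gave 0.115, 0.237, and 0.21, and its ΔΨ of 0.0473 did not pass the test (adjusted p = 0.266). At 4 days GSK591 gave 0.17, 0.156, and 0.186, a rise of 0.0307 (adjusted p = 0.0377). At 7 days Ψ fell by 0.0479 with GSK591 (0.0954, 0.12, and 0.128 against 0.182, 0.138, and 0.167; adjusted p = 0.00838) and by 0.0396 with MS023 (0.134, 0.124, and 0.11; adjusted p = 0.0339). The 4-day GSK591 call was lost without GSK591 library a or c or DMSO library a or b (ΔΨ from 0.0232 to 0.0382), and the 7-day GSK591 call without GSK591 or DMSO library a (ΔΨ from -0.0602 to -0.0382). The 7-day MS023 call was lost without MS023 library b or c or DMSO library a or c (ΔΨ from -0.0518 to -0.0299). With limma on log2 odds, the 2-day co-treatment call held (adjusted p = 0.0112, the highest over its alternatives, from 2.78e-08) and the other 4 did not (0.131 to 0.369, each the highest over its alternatives, which began at 0.00247).

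GSK591 changed other exons of TCF25. A form of exon 5 of 30 bases (chr16:89954060-89954089), which ends inside the annotated exon 5, was included at 0.891, 0.964, and 0.898 with DMSO at 4 days. With GSK591 it was included at 0.875, 0.793, and 0.757 at 2 days and at 0.773, 0.75, and 0.904 at 4 days, and at 7 days at 0.943, 0.826, and 0.818 against 0.937, 0.952, and 0.947. The GSK591 libraries of 4 and 7 days overlapped those of DMSO. Inclusion fell with GSK591 alone on all 3 days (ΔΨ = -0.11, -0.109, and -0.0831, adjusted p = 0.0126, 0.0244, and 0.0024). With co-treatment ΔΨ was -0.0517 at 2 days and -0.0227 at 4 days, neither of which passed the test (adjusted p = 0.252 and 0.54). MS023 at 2 days gave 0.967, 0.935, and 0.914, and GSK591 was below MS023 by -0.131, -0.147, and -0.089 on the 3 days (adjusted p = 0.00086, 6.7e-05, and 0.00122). Without GSK591 library b or c, or DMSO library b or c, the 2-day call was lost (ΔΨ from -0.143 to -0.0839), and those of 4 and 7 days were each lost in 5 of 6 such fits (ΔΨ from -0.156 to -0.061). None held with limma on log2 odds (adjusted p from 0.389 to 0.419, with a range of 0.0023 to 0.419 over the alternatives). Against MS023, the 2-day call was lost without MS023 library a (difference from -0.164 to -0.105) and the 7-day call without any 1 library other than library a of GSK591 (difference from -0.129 to -0.0669). Limma on log2 odds ended all 3 of these calls (adjusted p = 0.207, 0.107, and 0.267, the highest over their alternatives, from 6.04e-05). An event listed as a choice between exons 15 and 16 (chr16:89972602-89973730) has exons 13 and 17 as flanks, so neither of its forms holds exon 14. The event was listed only with co-treatment at 2 days, MS023 at 4 days, and GSK591 at 7 days, so other inhibitor groups could not be tested. MS023 at 4 days gave a ΔΨ of 0.0448, which did not pass the test (adjusted p = 0.135). Its Ψ shifted toward exon 15 by 0.15 with co-treatment at 2 days and by 0.0741 with GSK591 at 7 days (adjusted p = 5.43e-05 and 0.0237). These shifts rest on 14 to 23 and 11 to 14 reads per library for the exon 15 form. Reads that join exons 16 and 17 can also come from RNA with both exons, so a choice between the exons is not shown. The annotation places a lncRNA on the same strand over this segment, so its reads cannot be told apart, and the 7-day call was lost without GSK591 or DMSO library b or c (ΔΨ from 0.069 to 0.0819). Limma on log2 odds gave an adjusted p of 0.0789 and 0.0888 for these shifts, with a range of 1.67e-06 to 0.114 over the alternatives.

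NEMF (chr14:50248801-50319506, minus strand, 33 exons) changed in 3 events, each by less than 0.1. At exon 14 its 3′ splice site can lie 20 bases further into the exon, a shift that is no multiple of 3. The 20 bases between both sites (chr14:50295506-50295525) are shown in capitals, between 25 intron bases and 25 exon bases in lower case.
NEMF exon 14 start: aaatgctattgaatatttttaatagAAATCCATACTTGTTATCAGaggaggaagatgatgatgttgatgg
Use of the longer form was 0.958, 0.964, and 0.975 with DMSO at 4 days and 0.946, 0.891, and 0.849 with co-treatment at 2 days. At 4 days of co-treatment it was 0.894, 0.86, and 0.889. All co-treated libraries were below all DMSO libraries of 4 days, and ΔΨ was -0.0706 and -0.085 (adjusted p = 0.0242 and 0.00298). With DMSO at 7 days it was 0.922, 0.969, and 0.951. Neither compound alone passed the test at this site. Co-treatment minus GSK591 was -0.0705 at 2 days and -0.0561 at 4 days, neither of which passed the test (adjusted p = 0.0615 and 0.304). The 2-day call against DMSO was lost without any 1 library other than library a of co-treatment (ΔΨ from -0.0958 to -0.0474).

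Exon 18 of NEMF (chr14:50280706-50280768, 63 bases) fell with co-treatment at 2 days and with MS023 at 4 days (ΔΨ = -0.0357 and -0.0387, adjusted p = 0.0266 and 0.0325). It went from 0.983 or more in each DMSO library of 4 days to 0.925 to 0.98 and 0.95 to 0.957. With DMSO at 7 days it was 0.974, 0.976, and 0.977. No other comparison with DMSO passed at this exon (ΔΨ = -0.00883 with co-treatment at 4 days, adjusted p = 0.354). Exon 31 (chr14:50251810-50251853) rose by 0.0164 with co-treatment at 4 days (adjusted p = 0.0314), where no skipping read was counted. Each of these 3 calls was lost in 5 of 6 fits that left out 1 library (ΔΨ from -0.047 to -0.0195, from -0.0434 to -0.0351, and from 0.0086 to 0.0247). With limma on log2 odds no NEMF call held (adjusted p from 0.0697 to 0.296, and from 0.00257 to 0.296 over all alternatives). The paper describes stranded libraries, but not whether reads were counted by strand. It is thus not known whether the counts of exon 31 and the introns beside it include reads of KLHDC2, which overlaps them on the other strand. Those introns, which form the one retained-intron event of NEMF, had 11 to 54 reads per library and passed the test in none of the 8 comparisons.

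LTN1 (chr21:30300466-30365198, minus strand, 30 exons) changed against DMSO in 1 event. An extra exon of 372 bases (chr21:30339924-30340295), which is no exon of the principal annotated transcript, was included at 0.0257, 0.0116, and 0 with DMSO at 4 days. With co-treatment at 4 days its Ψ was 0.103, 0.0435, and 0.0652, above all DMSO libraries. The rise was 0.058 (adjusted p = 0.00199), and co-treatment exceeded GSK591 by 0.059 on that day (adjusted p = 0.000993). GSK591 was below MS023 at 4 days by -0.0473 (adjusted p = 0.0112), where MS023 libraries held 0.00872, 0.106, and 0.061. These values rest on 7 to 24 inclusion reads per co-treated library, and the rise against DMSO was lost without library a of co-treatment (ΔΨ over the fits from 0.0419 to 0.0715) and with limma on log2 odds (adjusted p = 0.0956, with a range of 0.00182 to 0.124 over the alternatives). The difference between GSK591 and MS023 was lost without GSK591 library a or c or MS023 library b or c (-0.0723 to -0.0234) and with limma on log2 odds (adjusted p = 0.307, with a range of 0.0106 to 0.385 over the alternatives). That between co-treatment and GSK591 was lost without library a of co-treatment (0.0429 to 0.0725) and with limma on log2 odds (adjusted p = 0.237, the highest over its alternatives, from 0.000944). The extra exon opens with a stop codon in the frame of exon 9, so that 437 of 1766 codons precede it, as the joined sequence shows with the stop in capitals.
LTN1 exon 9 to extra exon: agatgctcgtcaatgatcagTAA
Exon 28 of LTN1 (chr21:30304792-30304986, 195 bases), named after its values were seen, passed no comparison with DMSO but differed between the compounds at 7 days. Its Ψ was 1, 1, and 1 with GSK591 and 0.845, 0.948, and 1 with MS023, which overlap at 1, and GSK591 exceeded MS023 by 0.0689 (adjusted p = 0.0181). This call rests on 8, 3, and 0 skipping reads with MS023. It was lost without any 1 library other than library c of MS023 (0.0261 to 0.103) and with limma on log2 odds (adjusted p = 0.265, with a range of 0.0173 to 0.265 over the alternatives).

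VCP (chr9:35056061-35072622, minus strand, 17 exons) had the smallest called changes of the 5 genes. Retention of intron 12 (chr9:35060523-35060797, 275 bases) was 0.0159, 0.0117, and 0.0116 with DMSO at 4 days. It was 0.0182, 0.0192, and 0.0209 with GSK591 at 4 days and 0.0236, 0.0268, and 0.0256 with co-treatment, above all DMSO libraries. The rises were 0.00637 and 0.0123 (adjusted p = 0.0219 and 9.3e-05), and co-treatment at 2 days rose by 0.00884 (adjusted p = 0.00419). Intron 8 (chr9:35062136-35062213, 78 bases) rose by 0.00618 with GSK591 and by 0.00785 with co-treatment at 4 days (adjusted p = 0.0137 and 0.00178), from 0.0111, 0.00674, and 0.00792 with DMSO to 0.0134, 0.0179, and 0.0131 and to 0.0142, 0.0181, and 0.017. Between 1279 and 3908 reads per library stood behind both introns. The 4-day GSK591 calls were lost without library b or c of GSK591 or DMSO for intron 12 (ΔΨ from 0.00563 to 0.00777) and without library b of either for intron 8 (ΔΨ from 0.00463 to 0.00744), while the co-treatment calls held without any single library. With limma on log2 odds only the co-treatment calls of 4 days held (adjusted p = 0.0244 and 0.043, the highest over their alternatives, from 6.31e-05 and 0.00119). The 11 other VCP events tested, none of them called against DMSO, had ΔΨ between -0.0113 and 0.00143. One of them, exon 6 (chr9:35064151-35064282), named after its values were seen, was lower with co-treatment than with GSK591 at 2 days by -0.00345 (0.997, 0.996, and 0.995 against 0.998, 1, and 1; adjusted p = 0.0313). This call was lost in 5 of 6 fits that left out 1 library (-0.00414 to -0.00301) and with limma on log2 odds (adjusted p = 0.297, with a range of 0.00887 to 0.297 over the alternatives).

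**Figure D5:**
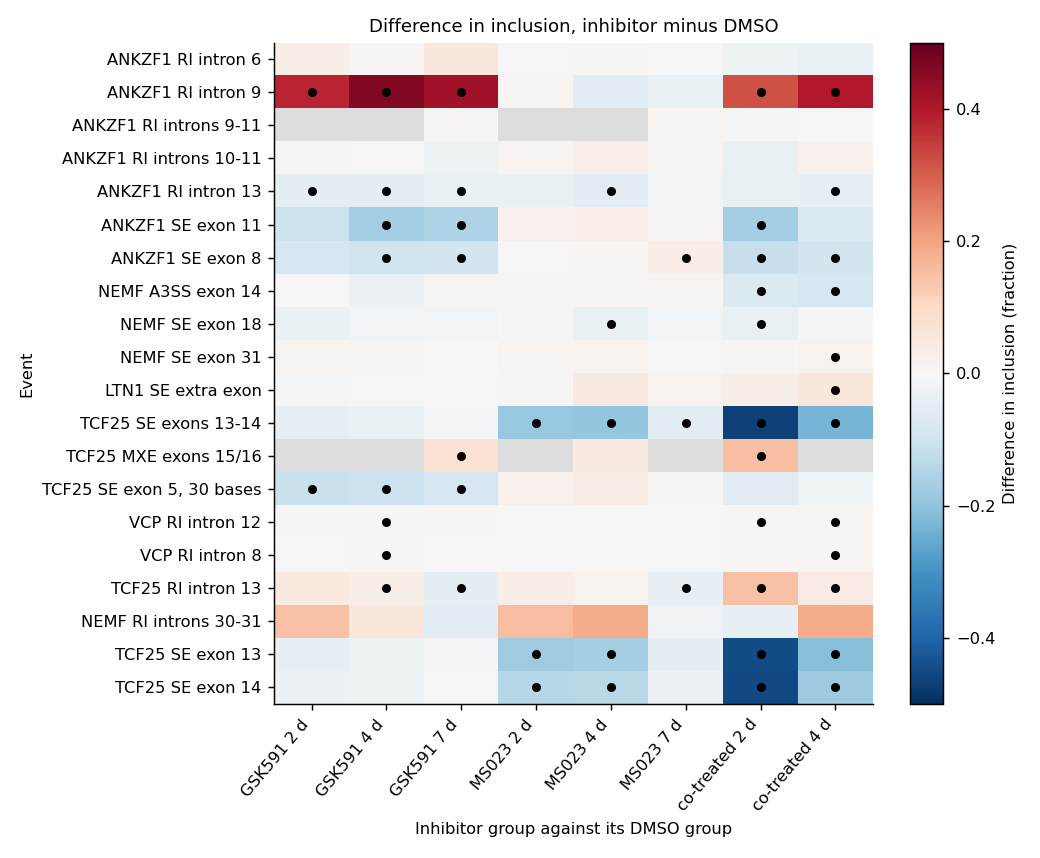
Difference in inclusion (inhibitor minus DMSO, as a fraction) of the named events of the 5 genes in the 8 comparisons with DMSO, with a black dot where the adjusted p was under 0.05 and gray where a table does not list the event. ANKZF1 intron 9 is raised with GSK591 and co-treatment (0.319 to 0.462), and exons 13 and 14 of TCF25 are lowered with MS023 and co-treatment at 2 and 4 days, by up to 0.465.

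Of the 191 events, 176 were tested in at least 1 comparison with DMSO, and 34 were called in at least 1: 24 of TCF25, 4 of ANKZF1, 3 of NEMF, 2 of VCP, and 1 of LTN1. Many of them overlap, and the 34 called events are 30 distinct segments. With GSK591, 6 of 91 tested events were called at 2 days, 11 of 94 at 4 days, and 11 of 88 at 7 days, which is 6.59%, 11.7%, and 12.5% against 7.02%, 11.2%, and 8.93% of all events of all genes. With MS023, 6 of 80, 9 of 104, and 4 of 82 were called, or 7.5%, 8.65%, and 4.88% against 3.16%, 3.75%, and 4.75% of all events. With co-treatment, 20 of 110 at 2 days and 20 of 108 at 4 days were called, or 18.2% and 18.5% against 13.4% and 14.7%. The shares with GSK591 at 2 and 4 days and with MS023 at 7 days were thus near those of all events, and the 6 calls of MS023 at 2 days were all in TCF25 and cover 4 distinct segments. The median ΔΨ over the tested members lay between -0.00629 and 0.00144 in the 8 comparisons.

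The direct comparisons called 12 of 66 events between GSK591 and MS023 at 2 days, 14 of 73 at 4 days, and 11 of 70 at 7 days, against 11.7%, 17.1%, and 14.7% of all events. Co-treatment differed from GSK591 in 7 of 69 events at 2 days and 6 of 72 at 4 days, against 4.41% and 6.53%. Between GSK591 at 4 and 2 days, 0 of 71 were called (1.03% of all events; limma on log2 odds also called 0, and 2 had an unadjusted p under 0.05). DMSO at 7 and 4 days differed in 2 of 79 events, both of TCF25 (7.04% of all events). The effects at 7 and 4 days differed in 1 of 67 events for GSK591 and in 0 of 70 for MS023 (1.83% and 0.0779% of all events), where limma on log2 odds called 0 for both and 5 events had an unadjusted p under 0.05 for MS023. Of the events not named above, 18 of 60 in TCF25 were called against DMSO at least once, with called ΔΨ between -0.126 and 0.161. None of the other 32 in ANKZF1, 38 in NEMF, and 15 in LTN1 was called against DMSO by the limma-moderated test, and their ΔΨ lay between -0.0884 and 0.127. In the comparisons other than those of an inhibitor with DMSO, such events were called in TCF25 (12 of 37), LTN1 (1 of 8, exon 28), and VCP (1 of 4, exon 6), and in none of 19 in ANKZF1 and 21 in NEMF. No share of all events was computed for calls in at least 1 of several comparisons, so such counts have no background here.

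Among other factors of the same pathways, the share of events called was close to or below that of all events. A list of 30 other ribosome quality control genes had called events in 13 of 28 genes tested with GSK591 at 2 days, 17 of 29 with co-treatment, and 3 of 28 with MS023. No share of genes with a called event was computed over all genes, so only the shares of events have a background. With GSK591, 7.85%, 10.3%, and 5.73% of the list's tested events were called at 2, 4, and 7 days, against 7.02%, 11.2%, and 8.93% of all events. With co-treatment these shares were 12.9% and 14.6% at 2 and 4 days, against 13.4% and 14.7%, and with MS023 they were 1.73%, 3.66%, and 1.89% at 2, 4, and 7 days, against 3.16%, 3.75%, and 4.75%. A list of 28 VCP adaptors and partners had called events in 8 of 24 genes with GSK591, 16 of 25 with co-treatment, and 4 of 24 with MS023 at 2 days, again with no share of all genes to set beside them. Of its events, 5.03%, 11.5%, and 8.6% were called with GSK591 at 2, 4, and 7 days, 11.1% and 14.4% with co-treatment at 2 and 4 days, and 1.08%, 2.42%, and 3.93% with MS023, against the same shares of all events. Both lists' median ΔΨ lay between -0.00245 and -0.00022 in the 8 comparisons, and that of all events between -0.00222 and -0.000233.

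The largest differences of these lists were in the following genes. UBXN2A, a UBX-domain adaptor of VCP, included an exon of 117 bases at 0.691, 0.627, and 1 with DMSO at 4 days and at 0.0854, 0.219, and 0.204 with co-treatment at 2 days (ΔΨ = -0.603, adjusted p = 0.000203), on as few as 10 reads. It also fell with GSK591 at 2 and 4 days and with co-treatment at 4 days (ΔΨ = -0.446, -0.601, and -0.583, adjusted p = 0.024, 0.000324, and 0.000457). The 2-day GSK591 call of UBXN2A was lost without any 1 of its 6 libraries (ΔΨ from -0.519 to -0.333), and limma on log2 odds ended both GSK591 calls (adjusted p = 0.217 and 0.0585, the highest over their alternatives, from 0.0245 and 0.000305). In GTPBP2, a GTPase linked to ribosome rescue, an intron of 300 bases rose by 0.349 with GSK591 at 2 days, from 0.257, 0.333, and 0.362 to 0.567, 0.643, and 0.79 (adjusted p = 0.000324). It also rose with GSK591 by 0.279 at 4 days and 0.181 at 7 days (adjusted p = 8.37e-05 and 0.0043) and with co-treatment by 0.251 and 0.329 at 2 and 4 days (adjusted p = 0.000509 and 2.91e-05), and passed with MS023 on no day. All 5 calls of GTPBP2 held under every alternative that could be run.

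NGLY1, which removes glycans from proteins that VCP extracts, retained an intron of 933 bases at 0.692, 0.408, and 0.493 with DMSO at 4 days and at 0.915, 0.946, and 0.862 with GSK591 at 4 days, a rise of 0.376 (adjusted p = 0.000773). The ΔΨ of this NGLY1 intron with GSK591 was 0.227 at 2 days and 0.113 at 7 days, neither of which passed the test (adjusted p = 0.081 and 0.464), while with co-treatment it rose by 0.244 and 0.379 at 2 and 4 days (adjusted p = 0.027 and 0.000862). The 4-day calls of NGLY1 held under every alternative, and that of 2 days was lost in 4 of 6 fits that left out 1 library (ΔΨ from 0.182 to 0.324), with limma on log2 odds, and with adjustment over all event types (adjusted p = 0.0825 and 0.0595, with a range of 0.0156 to 0.134 over the alternatives). TRNT1, which adds the CCA end to tRNAs, used the longer of 2 forms at a 5′ splice site more with GSK591 at 4 and 7 days, by 0.368 and 0.436 (adjusted p = 0.00376 and 0.0121), and its ΔΨ at 2 days was 0.267 (adjusted p = 0.0775). These TRNT1 calls were lost without GSK591 library c at 4 days (ΔΨ from 0.308 to 0.415) and library a at 7 days (ΔΨ from 0.381 to 0.468), and with limma on log2 odds (adjusted p = 0.0591 and 0.067, with a range of 0.00362 to 0.0847 over the alternatives). GIGYF2, a repressor of translation on stalled messages, and GNB2L1 (RACK1), a scaffold of the small subunit, each passed in 1 comparison, with a ΔΨ of -0.441 for GIGYF2 with co-treatment and of -0.342 for GNB2L1 with MS023, both at 4 days (adjusted p = 0.0203 and 0.0498), on 12 to 13 reads in their shallowest library. Without 1 library, the call of GIGYF2 was lost in 3 of 6 fits (ΔΨ from -0.532 to -0.326) and that of GNB2L1 in 6 of 6 (ΔΨ from -0.402 to -0.292), and neither held with limma on log2 odds (adjusted p = 0.139 and 0.393, the highest over their alternatives, from 0.0139 and 0.0393).

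The introns whose pattern over the 30 libraries was most like that of ANKZF1 intron 9, among 3281 retained introns with at least 20 reads in every library, were in TRABD, FLII, and NBEAL2, with a Pearson r of 0.977, 0.976, and 0.975. These values describe 10 groups of 3 libraries and are not independent points. The TRABD intron (chr22:50636425-50636503, 79 bases) had a mean Ψ of 0.295 with DMSO at 4 days, 0.677 with GSK591, and 0.256 with MS023, both of 2 days. That of FLII (chr17:18148734-18148868, 135 bases), which encodes an actin-binding protein, went from 0.039 to 0.217 and 0.0328. The intron of NBEAL2 (chr3:47048841-47049014, 174 bases) went from 0.327 to 0.664 and 0.251.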

How the data were processed

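Per the submitters' processing notes and the paper's methods, the authors trimmed reads (Trim Galore 0.6.5), aligned them to hg19 with STAR 2.4.2a, and compared inhibitor groups with DMSO in rMATS. The 8 deposited tables hold, per event and library, counts of inclusion and skipping reads (within the segment and across its junctions, not normalized), effective lengths, and inclusion fractions. Each cell joins 3 libraries with commas, so these values are of no single standard unit. The authors' own differences, p-values, and FDR were not used. The control of the 7-day tables was inferred from the labels. DMSO counts agreed wherever tables shared a control (693643 listings, 0 differed), and 0 columns of per-sample values were unused.

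Events were matched by all coordinates, and tested where each library had at least 10 reads and both forms had a read, a condition added after the data were seen. The quasi-binomial test used a dispersion moderated by limma 3.58.1 (R 4.3.3) and held at 1 or above, an F test, and p-values adjusted by Benjamini-Hochberg over all genes, separately for each event type and comparison. It was tested on simulated data, in which false calls among skipped exons exceeded the nominal share. Sequences come from GRCh37 and frames from the principal GENCODE transcript of each gene.

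Members, lists, and tests were chosen with earlier results of these data known. All retained introns of ANKZF1 were named, and for each other gene or event type of ANKZF1 up to 3 called events that do not overlap, by largest absolute ΔΨ. From the lists up to 6 genes were named by the same measure. TCF25 exons 13 and 14 taken singly, TCF25 intron 13, the NEMF retained intron, LTN1 exon 28, VCP exon 6, and the interval ratio of ANKZF1 were added after their values were seen. The other samples of the series were not analysed here.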

Additional observations from a re-analysis of the deposited data

Results flagged for a closer look

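Intron 13 of TCF25 was the one event of the 5 genes for which the effect of GSK591 differed between 7 and 4 days in an interaction test (difference of effects -0.0786, adjusted p = 0.00769 by the limma-moderated test, 1.49% of 67 tested members against 1.83% of all events). With GSK591 the intron was above DMSO by 0.0307 at 4 days and below it by -0.0479 at 7 days. The DMSO groups themselves differed by 0.0225 between 7 and 4 days (adjusted p = 0.317), whose part in this result was not tested. The difference of effects held without any 1 of the 12 libraries (-0.0909 to -0.0689), while limma on log2 odds gave an adjusted p of 0.188, the highest over the alternatives, of which the lowest was 0.00488. For MS023 the same difference was -0.0564 (adjusted p = 0.229), and 0 members passed its interaction test (0.0779% of all events; limma on log2 odds also called 0, and 5 had an unadjusted p under 0.05).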

How the results depend on the processing

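For the called differences of the events described in detail, those of the list genes included, and for ANKZF1 intron 9 on all days, direction held under all alternatives run, apart from the ANKZF1 intron 9 difference with MS023 at 2 days, which was not called and ranged from -0.0304 to 0.0407 when 1 library was left out (-0.0131 without MS023 library b, -0.0304 without DMSO library c). Counts of called members depended on the test. With limma on log2 odds, 2, 2, and 2 were called with GSK591 at 2, 4, and 7 days, 0, 0, and 0 with MS023, 10 and 12 with co-treatment at 2 and 4 days, 1, 3, and 5 between GSK591 and MS023 at 2, 4, and 7 days, 0 and 0 between co-treatment and GSK591, 0 between the DMSO groups, and 0 for the GSK591 interaction. Adjustment over all event types gave 1 between the DMSO groups, and a dispersion prior from events with at least 10 reads of each form, chosen after seeing the data, gave 2 with MS023 at 7 days. Leaving out 1 library gave 2 to 6 calls with GSK591 at 2 days, 3 to 8 at 4 days, and 3 to 8 at 7 days. It gave 3 to 7, 3 to 7, and 0 to 2 with MS023 at 2, 4, and 7 days, and 13 to 18 and 15 to 17 with co-treatment at 2 and 4 days. The direct comparisons gave 7 to 12, 12 to 15, and 5 to 10 between GSK591 and MS023, 4 to 8 and 4 to 7 between co-treatment and GSK591, 0 to 2 between the DMSO groups, 0 to 0 between GSK591 at 4 and 2 days, and 1 to 1 and 0 to 0 for the interactions. Against DMSO, the lowest counts came without GSK591 library b or c at 2 days, DMSO library b at 4 days and b or c at 7 days for GSK591, MS023 library a or c or DMSO library a at 2 days, MS023 library a at 4 days, MS023 library c or DMSO library a or c at 7 days, library b of co-treatment at 2 days, and library a at 4 days. Between GSK591 and MS023 at 2 and 7 days they came without MS023 library a, b, or c, and without GSK591 library b or c or MS023 library a. Between co-treatment and GSK591 at 2 days the lowest count came without library c of co-treatment, and between the DMSO groups without any 1 of the 7-day libraries. The cause was not tested. Of the named differences of the 5 genes, which include 3 of ANKZF1 intron 9 with MS023 that were not called, 55 of 83 lost their call with limma on log2 odds, 8 of 83 with the other prior, 4 of 83 with the wider adjustment, 0 of 83 with a minimum of 20 or of 1 read, and 127 of 504 with 1 library left out. Of the 18 called differences of list genes, LTN1 exon 28, and VCP exon 6, 9 lost their call with limma on log2 odds, 3 with the other prior, 1 with the wider adjustment, 1 with a minimum of 1 read, 0 of the 12 that could be tested with a minimum of 20, and 31 of 108 with 1 library left out. No paired analysis was possible because the columns carry no replicate numbers. Depth limits the exon events, where a call can rest on under 20 skipping reads per library, and ANKZF1 intron 13, with as few as 4 intron reads.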
